A study of Drosophila melanogaster with 63 samples.

Results

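The circadian clock genes examined here were Clk, cyc, per, tim, cwo, vri, Pdp1 and cry, chosen by symbol, and 7 of these 8 had values among 9212 measured genes. The exception was vri, whose clone had no value in any group. A second clone of tim had none either, so that each measured member rests on 1 clone. RNA of OregonR wild-type Drosophila melanogaster was compared on spotted arrays with 2 dye channels, at 25 C, in 12 groups. Starved (unfed) adults (females for 24 h on 6 arrays and for 48 h on 5, males for 24 h on 6) were kept on buffer alone. Sugar-fed adults (females for 24 h on 5 arrays and for 48 h on 6, males for 24 h on 6 and for 48 h on 4) had buffer with 20% sucrose. The reference for both was adults of the same sex on yeast paste. Larvae of 52, 64, 76, 88 and 100 h after egg laying (6, 5, 6, 4 and 4 arrays), each collected within a window of 2 h, were set against larvae of 40 h. The age of the adults, the tissue taken, the light schedule and the hour of collection were not stated in the labels.

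The fly clock is a feedback loop of transcription. The bHLH-PAS proteins CLOCK (Clk) and CYCLE (cyc) pair and switch on per, tim, cwo, vri and Pdp1. PERIOD and TIMELESS then return to the nucleus and block that pair, VRILLE and the PAR-domain bZIP protein of Pdp1 act on Clk in a second loop, and Clockwork orange, a bHLH-Orange protein, competes at the same promoter elements. CRYPTOCHROME (cry) is a blue light receptor that leads to the loss of TIMELESS. In flies held under light and dark, the transcripts of per, tim, vri, Pdp1 and cwo peak around dusk and night, Clk and cry run in the opposite phase, and cyc stays steady. Larvae of 64 and 88 h are whole days older than the 40 h reference, and those of 52, 76 and 100 h are off by a further 12 h. If the eggs for all ages were laid at the same hour of the day, samples from a population in step would lie at opposite phases in neighbouring ages. Samples midway between peak and trough would still have equal values, so a flat ratio cannot tell whether a gene cycles.

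Every array of a group carried the same merged value, so a group gives each gene 1 value, replicate error is unknown and no test could be made. Values are log2 ratios to the control, whose direction is likely treated over control, since the larval storage protein gene Lsp2 was at 8.52 at 88 h and 8.26 at 100 h, and eggshell genes were low in females without yeast. A technical spread came from 645 genes with exactly 2 clones. Of these, 95% had clones that differed by less than 0.53 and 0.74 in females starved for 24 and 48 h, 0.36 in starved males, 0.50 and 0.78 in sucrose-fed females, and 0.37 and 0.50 in sucrose-fed males. In larvae this limit was 0.62, 0.65, 0.85, 0.91 and 1.08 from 52 to 100 h. Differences between animals are not part of it. The members were chosen for their values in these same groups, so their ratios are given as a description.

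Of 84 member values, 2 were at least 2-fold from the control: Clk in larvae of 64 h and tim in females sucrose-fed for 48 h. In all genes, the share at least 2-fold from the control in either direction was 1.18% and 1.97% in females starved for 24 and 48 h, 0.587% in starved males, 1.51% and 2.96% in females sucrose-fed for 24 and 48 h, and 1.24% and 2.04% in sucrose-fed males. Larvae had shares of 2.28%, 1.18%, 4.88%, 7.46% and 11.7% in order of age. At 1.5-fold 8 of 84 member values passed, 5 in adult females, 0 in males and 3 in larvae. The share of all genes past 1.5-fold was 4.27% and 8.39% in unfed females, 1.88% in starved males, 5.01% and 9.42% in sucrose-fed females, and 2.71% and 4.25% in sucrose-fed males, with 5.33%, 6.12%, 13.5%, 17% and 25.7% in larvae in order of age. The rule used these ratios, so nothing is read from either count. Over the 12 groups the span between the highest and the lowest ratio was 2.08 for Clk, 1.68 for Pdp1, 1.24 for tim, 1.11 for cwo, 0.82 for cry, 0.48 for per and 0.36 for cyc. The median span of all genes was 0.75.

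In larvae most clock genes stayed close to the 40 h level at every age, and Clk was low at a single age. The repressors of the loop, per and tim, were among the flat ones. The ratio of per was -0.11, -0.0031, -0.025, -0.079 and -0.21 at 52, 64, 76, 88 and 100 h. That of tim was -0.16, -0.23, 0.039, -0.11 and -0.032 at the same ages. Both stayed near 0 at every age, inside the spread between clones, and their spans over the 5 ages were 0.21 and 0.27, against a median of 0.50 in all genes. The ratio of tim did go down and up in turn at its 4 steps, being lower at 64 and 88 h. However, 7.98% of all genes alternated in this direction and 15.99% in either direction, and no step of tim was larger than 0.27.

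Among the activators, Clk stood apart at 1 age. Its ratio was 0.10 at 52 h, -1.81 at 64 h, -0.32 at 76 h, -0.078 at 88 h and 0.19 at 100 h. The value at 64 h, 3.52-fold below larvae of 40 h, was lower than that of all but 2 of 9211 genes, and the other 4 ages lay inside the spread between clones. At 88 h, the other whole day, Clk was back near 0. At 64 h 0.185% of genes were at least 2-fold lower, 17 in number, and 3 of them were within 0.5 of 0 at all 4 other larval ages: Clk, the kinase gene Pak (-1.04 at 64 h) and PpY-55A, a protein phosphatase gene (-1.02). Neither Pak nor PpY-55A belongs to the clock, and they are named here after their values were seen. The value of Clk has 1 clone and no values of single arrays behind it, so there is no second measurement to set beside it. The partner gene cyc was at -0.26, 0.0034, -0.080, -0.033 and 0.10 from 52 to 100 h, with no dip at 64 h.

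The second loop is represented by Pdp1 alone. Its ratio was 0.083, 0.0016, -0.14, -0.45 and -0.76 at 52, 64, 76, 88 and 100 h, a decline with age that did not turn at any step. The repressor cwo was at -0.071, -0.36, -0.42, -0.30 and 0.69. It lay slightly below the 40 h larvae from 64 to 88 h and above them at 100 h, the age at which the step from the one before, 1.00, was larger than in all but 3.36% of genes. The blue light receptor gene cry was at -0.047, 0.018, 0.059, -0.091 and 0.053, the flattest member, with a span of 0.15 that 97.3% of genes reached or passed. None of the values of Pdp1, cwo and cry passed the spread between clones.

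**Figure D1:**
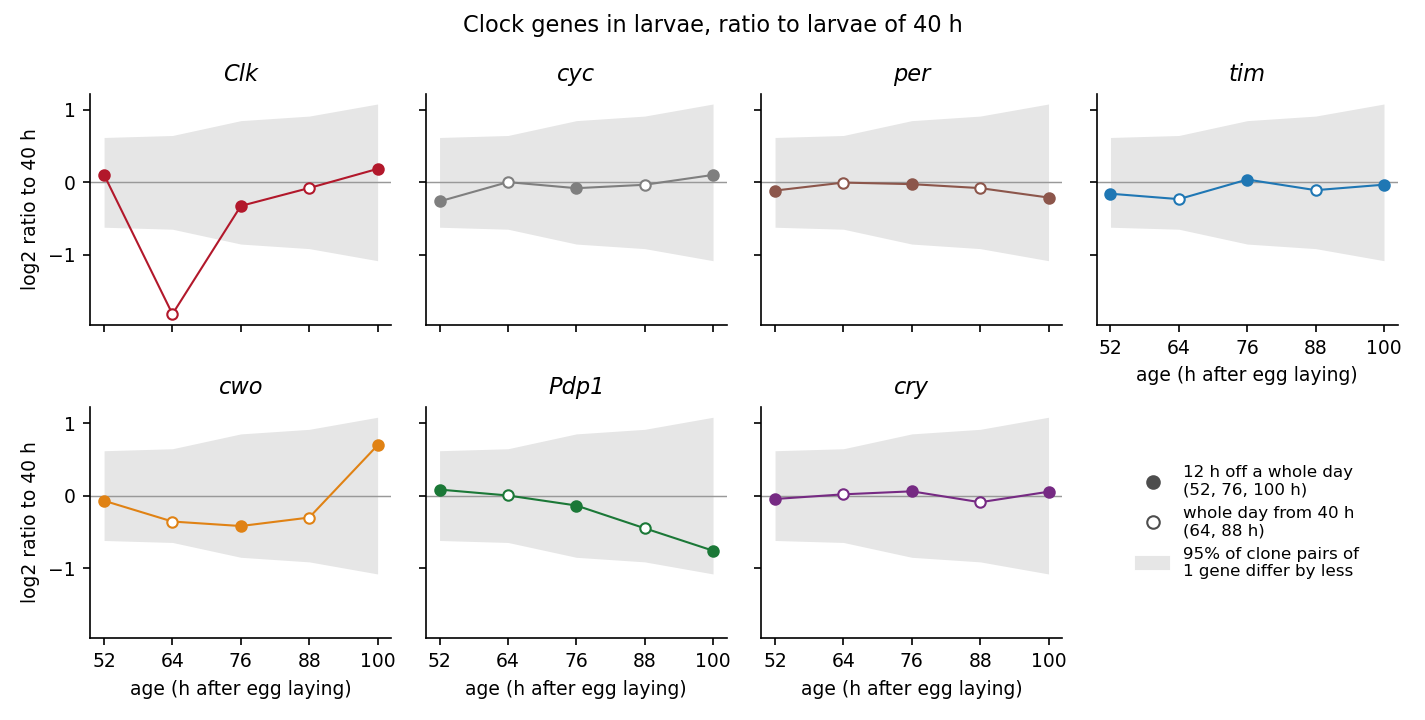
Log2 ratio to larvae of 40 h (vertical axis) against age in hours after egg laying for the 7 measured clock genes, with filled points at 52, 76 and 100 h and open points at 64 and 88 h, each 1 merged value. The grey band is the difference that 95% of clone pairs of 1 gene stay under, and Clk at 64 h (-1.81) is the point outside it.

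To put the alternation into 1 number per gene, the mean ratio at 52, 76 and 100 h minus the mean at 64 and 88 h was taken (the 12 h contrast), in which a steady level and a straight trend with age cancel. It was 0.93 for Clk, 0.40 for cwo, 0.12 for tim, 0.059 for cry, -0.047 for Pdp1, -0.065 for cyc and -0.075 for per. Apart from Clk and tim, each member changed sign under at least 1 other choice of ages. Examples were cry, at -0.011 without 88 and 100 h, and per, at 0.016 without 52 and 100 h. The median size of the contrast was 0.075 in the members and 0.11 in all 9197 genes with values at the 5 ages. In this contrast 95% of clone pairs differed by less than 0.45, which Clk passed and the other 6 members did not. Of all genes 0.946% were as far from 0 as Clk or further. No member reached 1, that is 2-fold, where 0.837% of all genes did, 0.0544% above 0 and 0.783% below.

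The value of Clk rested on the 64 h group. Where ages were left out, they were dropped in pairs. Without 52 and 64 h (mean of 76 and 100 h minus 88 h) the contrast of Clk was 0.0083. Without 52 and 100 h (76 h minus the mean of 64 and 88 h) it was 0.62. Without 88 and 100 h (mean of 52 and 76 h minus 64 h) it was 1.70. The contrast of cwo was -0.089 without 52 and 100 h, 0.11 without 88 and 100 h and 0.44 without 52 and 64 h. It was thus smaller in both choices that left out 100 h than in the one that kept it. With the 40 h larvae included at a ratio of 0, each age from 52 to 88 h was also compared with the mean of its neighbours. The mean of these differences, signed as in the contrast, was 0.84 for Clk and 0.14 for cwo. For cyc, per, tim, Pdp1 and cry the contrast lay between -0.17 and 0.21 in each way of choosing the ages.

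**Figure D2:**
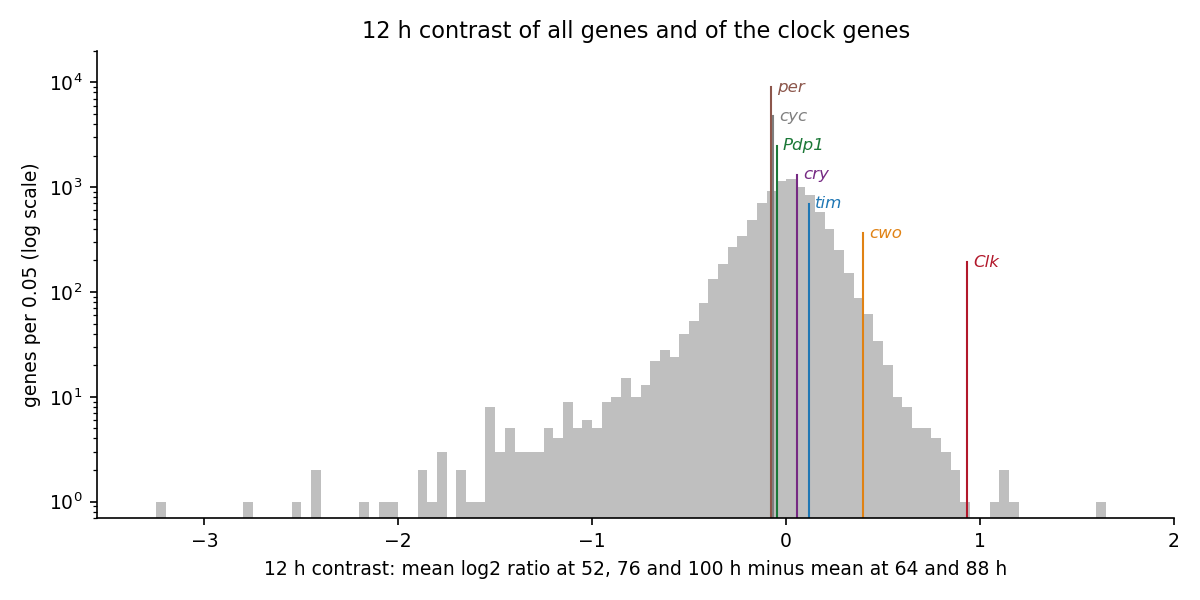
Number of genes (vertical axis, log scale) by 12 h contrast in log2 units (horizontal axis), with a coloured line at each clock gene. The lines of per, cyc, Pdp1, cry and tim stand in the middle of the genes, while cwo (0.40) and Clk (0.93) stand to the right.

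In some other genes the contrast was further from 0 than in any member, and in most of these it was below 0. It was at least 2-fold below 0 in 72 genes and above 0 in 5. The 5 lowest were CG14147 (-3.21), CG14573 (-2.78), TwdlJ (-2.52), CG14095 (-2.42) and TwdlM (-2.41), of which TwdlJ and TwdlM belong to the Tweedle cuticle protein family. TwdlJ was at -1.04, 2.57, -1.18, -0.98 and -2.95 from 52 to 100 h, and CG14147 at -3.49, 0.014, -4.27, -4.49 and -8.59. CG14147, TwdlM, CG14573 and CG14095 were lower at 88 h than at 52 h, so their contrast came from a high value at 64 h and a low one at 100 h, not from both whole days. The 5 highest were CG11854 (1.62), CG9021 (1.18), Cpr78E (1.14), wb (1.12) and NimC2 (1.09). CG11854 was at 0.19, 0.11, 0.58, 1.01 and 5.78 from 52 to 100 h, and its contrast thus came from the oldest age.

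Larvae also moult in the course of these ages. In 25 measured genes of ecdysone signalling and moulting the contrast had a median of 0.086, with Cyp18a1, which breaks down ecdysone, at -1.11, serp, a chitin deacetylase gene, at -0.89, ImpL2 at 0.51 and usp, a partner of the ecdysone receptor, at 0.39. Cyp18a1 was at -1.84, -0.48, -1.36, -1.09 and -2.49 from 52 to 100 h, and serp at -1.84, -0.56, -1.42, -1.16 and -1.99. Both were nearest to the 40 h larvae at 64 h. The hour of collection is not known. If time of day followed age, stage within the moulting cycle and time of day run together in these ages and cannot be told apart. At 64 h the moulting genes had a median of -0.12, against -1.81 for Clk, and their part in the value of Clk was not tested.

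Partners of the clock proteins were examined in lists. The 13 measured kinases, phosphatases and turnover factors had a median contrast of 0.019, with the extremes at wdb (0.43), a subunit of protein phosphatase 2A, and CSN5 (-0.16). The 8 input and signalling genes had a median of -0.11, between -0.18 for Pdfr, the receptor of the clock neuropeptide, and -0.013 for Dh31. Pdf itself, the neuropeptide, was at -0.14. The 5 translation and RNA factors had a median of 0.19 with Not1 at 0.60, which was at 1.69 at 100 h. The 12 clock outputs had a median of -0.031, and the 11 bZIP and bHLH relatives of the members 0.011. In these lists no gene passed 2-fold in the contrast.

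The largest contrast among the outputs was that of unc80 (0.84), which encodes a partner of the sodium leak channel narrow abdomen. Its ratio was 0.020, -0.63, 0.46, -0.61 and 0.19 from 52 to 100 h. It was thus lower at both whole days than at each of the 3 other ages. Of 9197 genes, 7 alternated with every step at least 0.5, and unc80 was 1 of them. The channel gene na was at -0.24, 0.19, -0.23, -0.31 and 0.16, and unc79, the other partner, at -0.28, -0.19, -0.083, -0.36 and -0.42, and neither took the shape of unc80.

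In adults, tim and Pdp1 were higher than on yeast in females on both diets and closer to the yeast control in males. The ratio of tim was 0.80 and 0.86 in females starved for 24 and 48 h, 0.58 and 1.01 in females sucrose-fed for 24 and 48 h, 0.24 in starved males, and 0.22 and -0.092 in sucrose-fed males. The 4 female values passed the spread between clones, and the 3 male values did not. In females sucrose-fed for 48 h, tim was 2.01-fold above the yeast control, where 1.7% of all genes were at least 2-fold higher. The 4 female values of tim were among the 5.03% of genes furthest from 0 in their group, or fewer. In starved males 13.1% of genes were as far from 0 as tim or further. In sucrose-fed males the share was 15.3% at 24 h and 64.1% at 48 h.

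Pdp1 was at 0.37 and 0.92 in females starved for 24 and 48 h and at 0.24 and 0.86 in sucrose-fed females. In males it was at 0.11 in starvation and at -0.029 and -0.035 on sugar. Both values at 48 h in females passed the spread between clones and both at 24 h did not. At 48 h 2.52% of genes in starved and 4.08% in sucrose-fed females were as far from 0 as Pdp1 or further. The difference of 48 h minus 24 h was 0.55 in starvation and 0.62 on sugar, each less than the 0.77 and 0.66 that 95% of clone pairs stayed under.

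The gene cry lay on opposite sides of the yeast control in the sexes. Its ratio was 0.18 and 0.21 in unfed females at 24 and 48 h and 0.089 and 0.31 in sucrose-fed females, and -0.24 in starved males and -0.39 and -0.51 in sucrose-fed males. All 4 female values were above 0 and all 3 male values below it. The values in sucrose-fed males passed the spread between clones (0.37 and 0.50), whereas the others did not. In sucrose-fed males, 5.11% of genes at 24 h and 5.57% at 48 h were as far from 0 as cry or further.

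No adult value of cwo, Clk, per or cyc passed the spread between clones. The ratio of cwo was 0.31 and 0.31 in unfed females, 0.30 and 0.49 in sucrose-fed females, 0.11 in starved males, and 0.0059 and 0.012 in sucrose-fed males. It was above 0 in all 7 adult groups, and further from 0 than cry in the 4 female groups. Clk was at 0.21 and 0.18 in unfed females, 0.26 and 0.17 in sucrose-fed females, 0.11 in starved males, and 0.12 and 0.023 in sucrose-fed males. Its 7 adult values thus all lay within 0.27 of the yeast control. These values compare diets, not ages, so they could not show a counterpart of the low value in 64 h larvae. The ratio of per was 0.0064 and 0.27 in unfed females, -0.17 and 0.12 in sucrose-fed females, 0.077 in starved males, and 0.057 and -0.013 in sucrose-fed males. That of cyc was -0.022 and -0.26 in unfed females, 0.060 and -0.19 in sucrose-fed females, -0.083 in starved males, and 0.066 and -0.066 in sucrose-fed males. Both genes had values on either side of 0.

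**Figure D3:**
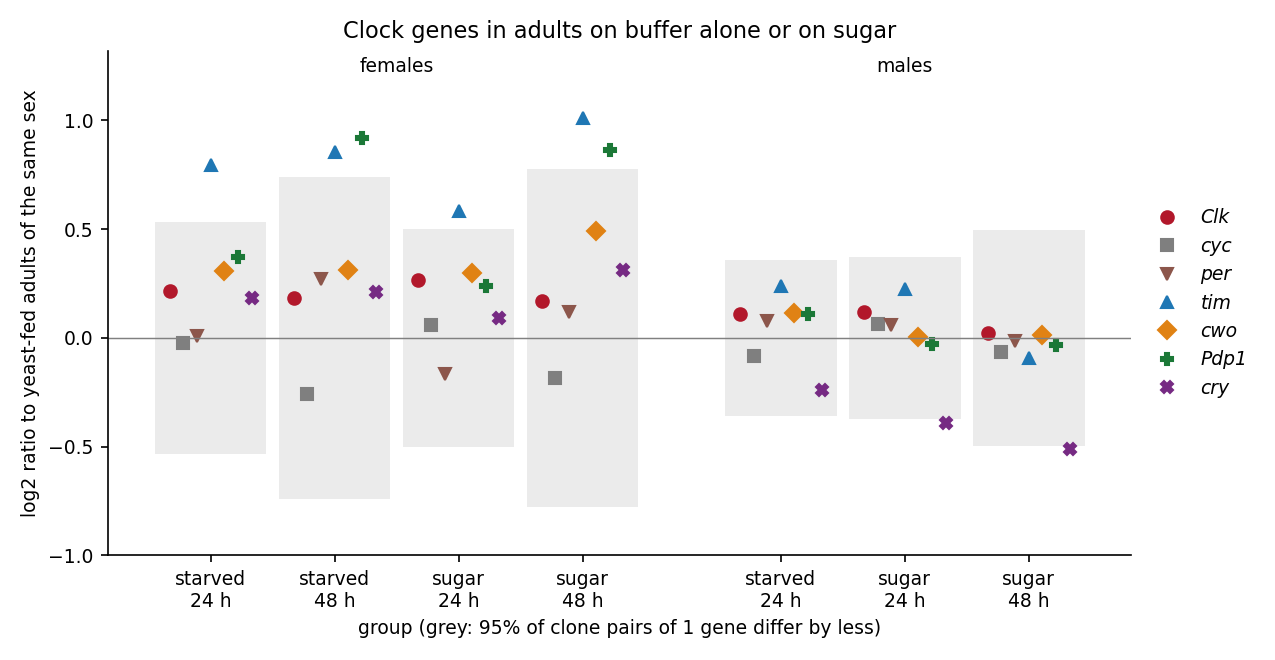
Log2 ratio to yeast-fed adults of the same sex (vertical axis) for the 7 clock genes in the 7 adult groups, females left of males, each point 1 merged value and each grey bar the difference that 95% of clone pairs of 1 gene stay under. The points outside the bars are tim in the 4 female groups, Pdp1 in both female groups at 48 h and cry in both groups of sucrose-fed males.

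The members' median was 0.21 and 0.27 in unfed females and 0.24 and 0.31 in sucrose-fed females, against 0.11 in starved males and 0.057 and -0.035 in sucrose-fed males. The median of all genes was between -0.023 and 0.022 in the same groups. Female minus male, the difference was 0.56 for tim, 0.42 for cry and 0.26 for Pdp1 in starvation at 24 h. On sugar it was 0.36, 0.48 and 0.27 at 24 h and 1.10, 0.82 and 0.90 at 48 h for the same genes. At 48 h of sugar tim and Pdp1 passed the difference of 0.87 that 95% of clone pairs stayed under, and 2.57% of all genes were, like tim, at least 2-fold higher in females than in males. In this difference 2.66% of all genes were as far from 0 as tim or further, and 5.12% as far as Pdp1 or further. Starvation minus sugar, the member furthest from 0 was tim at 0.21 after 24 h and cwo at -0.18 after 48 h in females, and cyc at -0.15 after 24 h in males. No difference between the diets passed the spread between clones. Both diets were compared with the yeast control, and their shared direction is no independent evidence.

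The photoreceptor, neuron and muscle lists had medians above the yeast control in the same females. Photoreceptor genes (9 measured) had medians of 0.54 and 1.25 in unfed females and 0.70 and 0.96 in sucrose-fed females, against 0.20 in starved males and 0.13 and 0.26 in sucrose-fed males. In starved females 8 of the 9 photoreceptor genes were above 0 at both times, and in sucrose-fed females 8 at 24 h and 9 at 48 h. Neuronal genes (5 measured) were at 0.30 and 0.71, 0.36 and 0.45, 0.11, and 0.030 and 0.14 in the same order. Muscle genes (6 measured) were at 0.40 and 1.09, 0.51 and 1.08, -0.031, and -0.097 and -0.10. Pdp1 is also known as an activator of muscle genes. Ovary and eggshell genes (14 measured) were at -2.22 and -2.55 in unfed females and -2.86 and -2.78 in sucrose-fed females, against -0.10 in starved males and -0.018 and 0.12 in sucrose-fed males. In such samples a change in the share of a tissue and a change of RNA per cell cannot be told apart, and the part of these tissues in the values of tim, Pdp1 and cry was not tested. Gut genes (14 measured) had medians of -0.40 and -0.43 in unfed females, -0.63 and -1.10 in sucrose-fed females, -1.22 in starved males, and -0.96 and -2.41 in sucrose-fed males, and their part in the values of cry was not tested. In females this list was split, with 5 of the 14 genes above 0 after 48 h of starvation and 5 after 48 h of sucrose. In these 2 groups alphaTry was at 1.42 and 1.43 and Jon25Bi at -1.46 and -2.41. Glial genes (3 measured) had medians of 0.95 in females starved for 48 h and 0.82 in females sucrose-fed for 48 h, and lay between -0.11 and 0.041 in the other adult groups. The medians lay between -0.22 and 0.17 for fat body (7 measured) and between -0.25 and 0.027 for testis and accessory gland genes (7 measured). Single fat body genes lay further out, with Lsp2 between -7.25 and -4.59 in all adult groups. After 24 and 48 h of sucrose, FASN1 was at 0.71 and 1.00 in females and bmm at -1.13 and -1.38 in males. The testis and accessory gland list was split in starved males. Its accessory gland genes Acp36DE, Acp26Aa, Acp53Ea and SP were at -1.07, -0.69, -0.63 and -0.25 there. Its testis genes Mst98Cb, Mst98Ca and dj were at 0.59, 0.47 and 0.43.

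**Figure D4:**
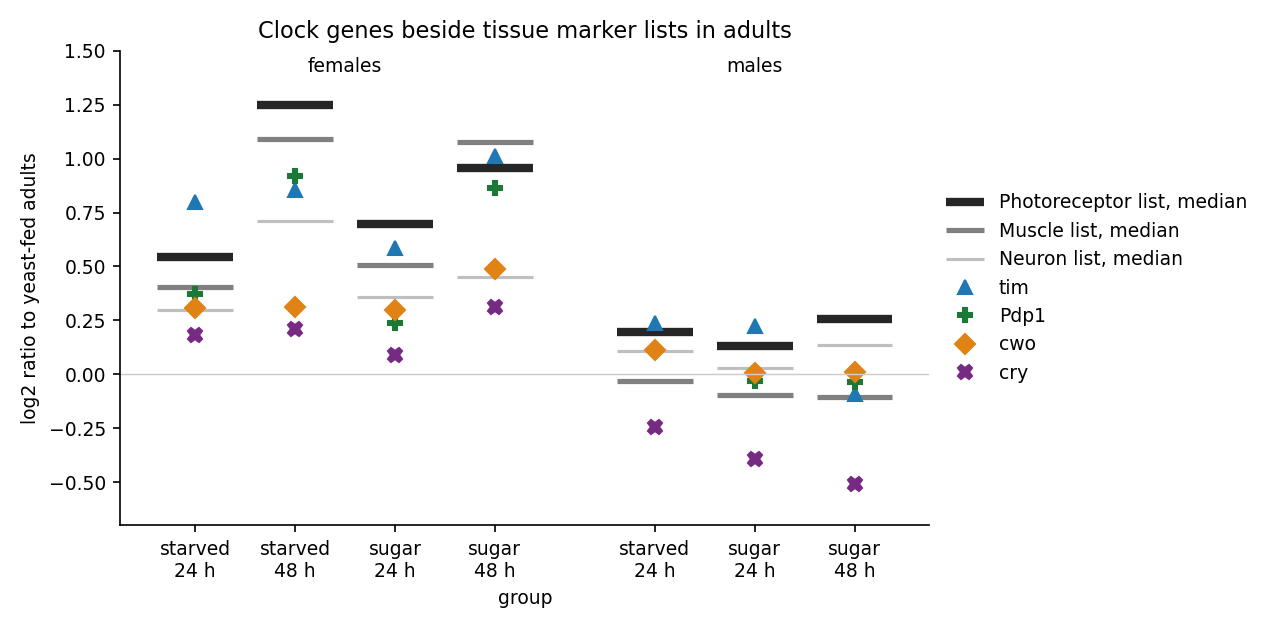
Log2 ratio to yeast-fed adults (vertical axis) for tim, Pdp1, cwo and cry (symbols, those of Pdp1 and cwo overlying each other in starved males) beside the medians of the photoreceptor, muscle and neuron lists (horizontal bars), females left of males. In females tim and Pdp1 lie among the bars except at 24 h, where tim in starvation (0.80) is above them and Pdp1 on sucrose (0.24) below, and in males cry lies below all of them.

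The genes whose ratios over the 12 groups were most like those of a member were sought for the 4 members with a span of at least 1, among 2815 other genes with such a span. Larval groups share the 40 h larvae and adult groups share the yeast diet as control, so these coefficients describe the profiles and carry no test. For tim the most alike were CG4461 (Pearson r = 0.96, 12 groups), Arr2, an arrestin of photoreceptors (0.96), and Muc68D (0.96). Arr2 was at 1.61 and 1.78 in unfed females and 1.44 and 2.15 in sucrose-fed females, against 0.42 in starved males and 0.45 and 0.43 in sucrose-fed males. For Pdp1 they were hebe (0.97), CG14109 (0.96) and Skp2 (0.96). For cwo they were CG30015 (0.98), kek5 (0.94) and raw (0.93), with CG30015 at 0.82 and kek5 at 0.84 at 100 h. For Clk they were Lar (0.88), Pak (0.88) and D19A (0.88), whose ratios at 64 h were -0.89, -1.04 and -0.72. Of the 21 pairs of members, tim and Pdp1 were most alike (0.81), followed by per and Pdp1 (0.76), and cyc and Pdp1 least (-0.63). Over the 7 adult groups alone the order was another, with tim and cry (0.98), cwo and cry (0.97) and tim and cwo (0.95) most alike and cyc and per least (-0.82).

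The other genes of the clock pathway were mostly near the yeast control in adults. Of 38 genes in the kinase, translation, input and output lists, 1 was at least 2-fold from the control in females starved for 48 h, where 1.97% of all genes were. In sucrose-fed females 2 were at 24 h, where 1.51% of all genes were, and 2 at 48 h, where 2.96% were. All were higher, and they were trpl, a light-gated channel gene that is also in the photoreceptor list (1.25 after 48 h of starvation, 1.04 and 1.53 after 24 and 48 h of sucrose), and cbt, a zinc finger gene (0.41 after 48 h of starvation, 1.00 and 1.12 after 24 and 48 h of sucrose). In sucrose-fed males cbt was at 1.08 and 1.34. Among these 4 lists the outputs had the highest median in females, at 0.18 and 0.46 without food and 0.20 and 0.52 on sucrose after 24 and 48 h, against -0.034 in starved males and -0.037 and 0.080 in sucrose-fed males. Pdf was at 0.020 and 0.017 in unfed females, -0.058 and 0.021 in sucrose-fed females, -0.0058 in starved males, and 0.062 and -0.095 in sucrose-fed males. The kinase list had medians of -0.0039 and -0.16 in unfed females, 0.048 and -0.067 in sucrose-fed females, -0.019 in starved males, and -0.0032 and -0.034 in sucrose-fed males. Among the relatives of the members hry, a bHLH-Orange gene like cwo, was at 0.45 and 0.73 in unfed females and 0.63 and 1.16 in sucrose-fed females, against -0.037 in starved males and 0.18 and 0.29 in sucrose-fed males.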

How the data were processed

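The deposited values are log2 ratios. Per the labels, the authors scanned each of 63 arrays 3 times and merged both spot copies and all repeat hybridisations into 1 value. In the table all columns of each of the 12 groups were identical, and 24188 of 32448 spots, 12094 clones, had values. The log base is read off the numbers: with base 2, 99.9959% of 144996 values come from a ratio of 6 decimals (within 0.05 of the last). Background correction, normalisation, centring and direction: not given in the sources used here. Only these ratios were used, so levels are unknown. Clones were named by the platform annotation, updated by gene identifier or accession to the RefSeq annotation of Release 6 plus ISO1 MT (10148 clones with 1 symbol), with the median taken where a gene had several clones. Python 3.11.15 with pandas 2.3.3 and matplotlib 3.10.9 was used, and the contrast was tested on simulated data. As arrays carry no values of their own, no model was fitted, and p-values were not computed. Members and the 14 gene lists were chosen with earlier results of these data known. Named genes are the members, the 3 most alike per member, the 5 extremes of the contrast in each direction, the extremes of the lists, and genes marked as chosen later. No sequences were analysed here. Precision is limited by the few arrays per group (4 to 6).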

Additional observations from a re-analysis of the deposited data

Results flagged for a closer look

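The ratio of cry to the yeast control was on opposite sides of 0 in sucrose-fed females and males at 48 h, at 0.31 in females and -0.51 in males, each further from 0 than the standard deviation between clones in its group. The difference of 0.82, female minus male, was not tested, since each group holds 1 merged value, and it stayed under the 0.87 that 95% of clone pairs differed by less than.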

How the results depend on the processing

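Neither taking the mean over clones nor centring each group on its median over all genes moved any of 131 results. Ratios, differences and contrasts stayed within 1 standard deviation between clones, and the counts of members at least 2-fold from the control did not change. For the mean over clones this follows from each measured member having 1 clone. The contrast between the 12 h steps of larvae depended on the ages used for Clk and cwo. For Clk it was 0.93 as reported and 0.74 by the fourth difference. It was 0.62 without 52 and 100 h and 1.70 without 88 and 100 h. Without 52 and 64 h, a choice made after seeing the data, it was 0.0083. For cwo it was 0.40 as reported, 0.093 by the fourth difference and 0.14 with the 40 h larvae included. It was -0.089 without 52 and 100 h and 0.11 without 88 and 100 h. The cause of these shifts beyond the ages left out was not tested. At 1.5-fold in place of 2-fold, members counted were 1 in females starved for 24 h (4.27% of all genes), 2 at 48 h (8.39%), 2 in females sucrose-fed for 48 h (9.42%) and 2 in larvae of 100 h (25.7%), against 0, 0, 1 and 0. No paired analysis was possible because all arrays of a group hold the same merged value. For the same reason leaving out arrays was not run, and single clones could not be compared within a member. No depth or brightness is known for these ratios, so detection could not be judged.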

Other observations

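Of the 7 genes whose larval ratios alternated with every step at least 0.5, unc80 was lower at 64 and 88 h and the other 6 were higher: CG13217, CG14326, CG2962, CG9757, Ccp84Aa, a cuticle protein gene, and Cp38, a chorion gene. CG9757 was at -2.11, -0.19, -1.30, 0.17 and -0.72 from 52 to 100 h, and Ccp84Aa at -1.94, -0.82, -2.52, -2.00 and -3.50. These genes were chosen for this shape after their values were seen, and each rests on 1 clone. Cp38 was at -0.66, -0.049, -0.56, 0.20 and -0.47. Chorion proteins are known as products of the adult ovary. CG1409, lower than Clk at 64 h, was at -0.22, -2.715, 0.48, 0.52 and -1.20 from 52 to 100 h.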
